A study of Homo sapiens with 6 samples.

Results

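The cystatins and cathepsins examined here are 10 genes, CST1, CST2, CST3, CST4, CST6, CSTA, CSTB, CTSB, CTSD and CTSL. Their probes were chosen as those of the array whose transcript accession belongs to one of these genes in the RefSeq gene table of GRCh38.p14. That gave 10 probes for 9 genes, out of 50599 probes on the array. CST3 had 2 probes, for different transcripts (NM_000099 and NM_001288614), the other 8 genes had 1 each, and CST4 was not analysed here because no probe met the rule. The group was proposed because CST2 was among the largest falls with hsa-miR-205-5p, so every value of that comparison is given as a description without a test.

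Cystatins are small inhibitors that block papain-like cysteine proteases by plugging the active site. CSTA and CSTB (stefins A and B) act mostly inside the cell. CST1 (cystatin SN), CST2 (cystatin SA), CST3 (cystatin C), CST4 (cystatin S) and CST6 (cystatin E/M) are secreted. CST1, CST2 and CST4 are close paralogs that lie with CST3 on chromosome 20. Cathepsins are proteases of the lysosome, made as inactive proenzymes and carried there by mannose 6-phosphate receptors. CTSB and CTSL are cysteine cathepsins, which cystatins inhibit, while CTSD is an aspartic protease, which they do not. In breast cancer these enzymes are known for cleaving matrix proteins when cells release them, and CTSD and the cystatins for being secreted by tumor cells.

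RNA came from MDA-MB-231, a human breast cancer cell line of mesenchymal type, 72 h after transfection at 30 nM with the precursor of hsa-miR-205-5p, with that of hsa-miR-214-3p, or with a scrambled control. Each group had 2 arrays, and the groups differed in the transfected RNA alone as far as the labels say. Nothing in the labels says whether both samples of a group came from separate cultures, so a p-value measures only the spread between these samples, which may be technical. The arrays read the RNA of all cells together, so fewer cells with a transcript and less transcript per cell cannot be told apart.

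The mature sequences of the transfected miRNAs are shown because they are what set the treated groups apart. They are written 5′ to 3′ as RefSeq gives them, with the seed (bases 2 to 8), which pairs with target transcripts, in capitals.
hsa-miR-205-5p: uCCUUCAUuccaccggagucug
hsa-miR-214-3p: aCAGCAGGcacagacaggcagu
In GRCh38.p14 the first lies at chr1:209432166-209432187 on the plus strand and the second at chr1:172138816-172138837 on the minus strand. The seeds differ. The transcripts of the cystatins and cathepsins were not searched for seed matches here.

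All values below are normalized log2 signals, that is, log2 of the scanner's processed intensity minus the 75th percentile of the same array, and they compare groups for 1 probe and never 1 probe with another. Between 35.4% and 42.2% of the spots of an array were well above background, 0 were saturated, and all 6 arrays lay on 1 slide. A probe was tested when 1 or more groups had it well above background on each of their arrays, which left 18464 probes. VIM and CD44, which mark this line, were well above background on all 6 arrays, and no probe of ESR1, PGR or the leukocyte gene PTPRC passed that filter. EPCAM, CDH1, KRT8, ERBB2 and KRT18 were also well above background on all 6 arrays, scrambled control included, on their brightest probes. The epithelial genes EPCAM and CDH1 were 2.40 and 1.96 higher on the log2 scale with hsa-miR-205-5p than in the scrambled control, and KRT8, ERBB2 and KRT18 were 0.85, 0.67 and 0.30 higher on their brightest probes. A second probe of KRT18 went the other way, at −1.09, and a second probe of KRT8 was at 0.53. The part of these 5 genes in the results was not tested. The scrambled control replicates lay farther apart than the replicates of either precursor over the tested cystatin and cathepsin probes (root mean square difference of 0.47 in normalized log2 signal, against 0.21 for hsa-miR-205-5p and 0.12 for hsa-miR-214-3p), as they did over all tested probes (0.67, 0.51 and 0.34).

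With hsa-miR-205-5p, the secreted cystatins CST2 and CST1, 1 of the 2 probes of the secreted cystatin CST3, and the aspartic protease CTSD were more than 2-fold below the scrambled control, CST2 by 10.4-fold and CST1 by 6.40-fold. The other probe of CST3 was 1.39-fold lower. The secreted cystatin CST6 was the only one of the tested genes that lay above the control on every array, by 1.83-fold. With hsa-miR-214-3p, none of these genes was called different from the control. The widest changes there were in CTSL (1.63-fold higher), CST6 (1.60-fold higher) and that other probe of CST3 (1.50-fold lower), and CST2 was 1.41-fold lower. Of the 10 probes, 9 passed the filter. All 9 were well above background on all 6 arrays, so none of them was kept only through the group in which it was high. The tenth, that of CSTA, an inhibitor known from skin and other epithelia, was not well above background on any array. Its processed intensities were 2.42 and 3.98 with hsa-miR-205-5p, 5.95 and 3.15 with hsa-miR-214-3p and 2.12 and 2.00 in the scrambled control, and no fold is given for it.

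**Figure D1:**
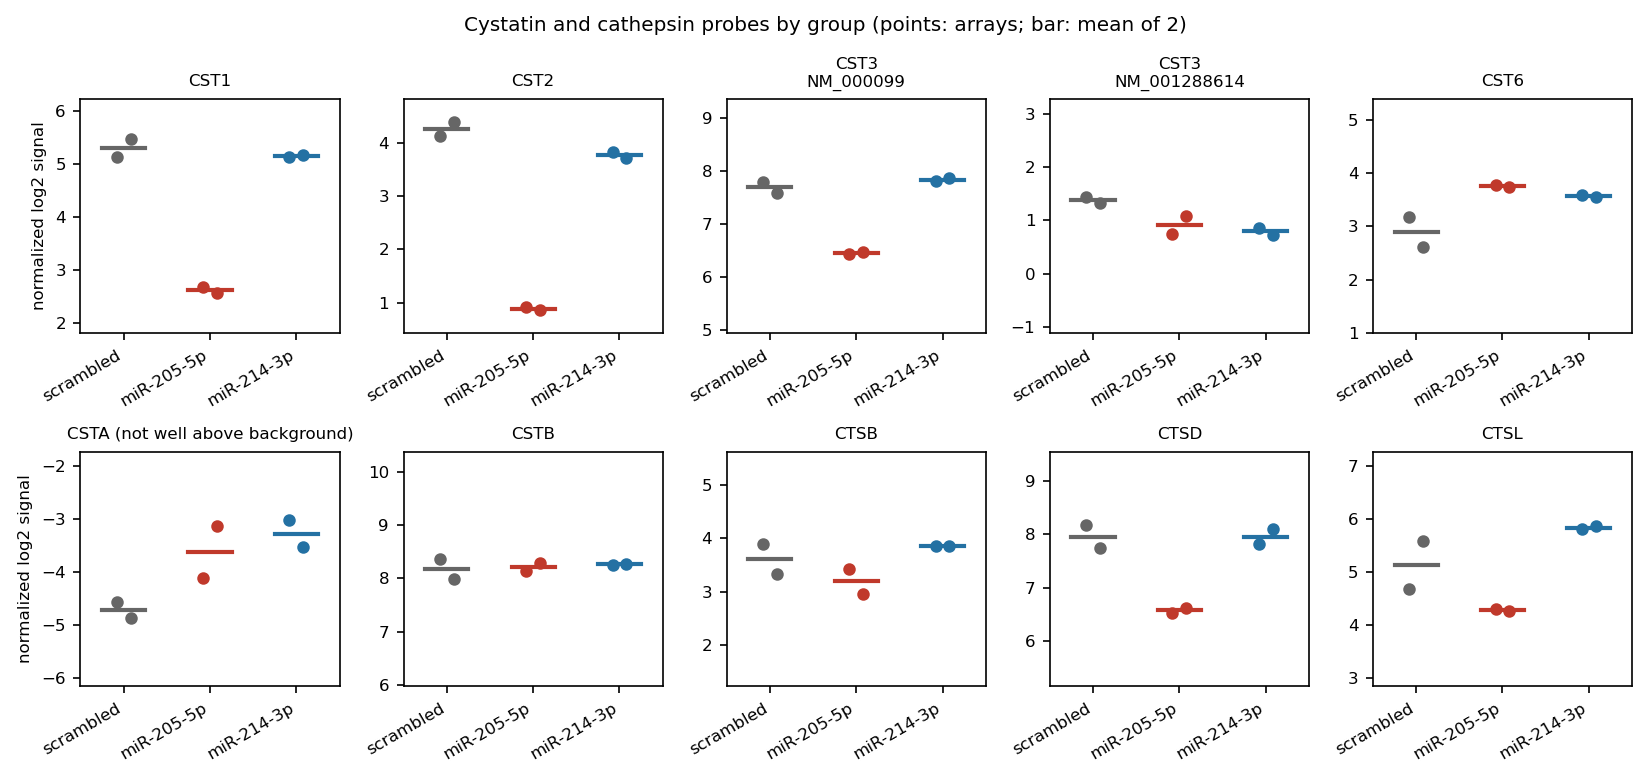
Normalized log2 signal (y axis, the same span of 4.4 units in every panel) of the 10 cystatin and cathepsin probes by group. Points are single arrays and bars the mean of 2. CST2, CST1, the NM_000099 probe of CST3, CTSD and CTSL lie lower on both hsa-miR-205-5p arrays than on all other arrays, and CSTA was not well above background on any array.

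CST2 encodes cystatin SA, a secreted cysteine protease inhibitor first found in saliva. Its normalized log2 signal was 4.14 and 4.40 on the scrambled control arrays, 0.92 and 0.85 on the hsa-miR-205-5p arrays, and 3.82 and 3.71 on the hsa-miR-214-3p arrays. The groups did not overlap, and both hsa-miR-205-5p arrays lay far below all 4 others. As processed intensity before scaling, CST2 was at 884 and 1221 in the scrambled control, 79.0 and 63.4 with hsa-miR-205-5p, and 685 and 480 with hsa-miR-214-3p. The group means were 4.27 ± 0.18 (SD, n = 2) in the scrambled control and 0.89 ± 0.049 (SD, n = 2) with hsa-miR-205-5p. Their difference was −3.38 on the log2 scale. The 4 differences between single arrays ran from −3.54 to −3.21. On the hsa-miR-205-5p arrays the probe stayed at least 2.29 log2 units above the lowest signal that was still well above background on the same array, so the fold is a measured value and not a limit.

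CST1 encodes cystatin SN, the closest relative of CST2 with a probe here and a secreted inhibitor often found raised in carcinomas. Its normalized log2 signal was 5.13 and 5.47 in the scrambled control, 2.68 and 2.56 with hsa-miR-205-5p, and 5.12 and 5.17 with hsa-miR-214-3p. The hsa-miR-205-5p arrays stood apart, while the other 4 arrays lay together. The difference for hsa-miR-205-5p was −2.68 on the log2 scale, from a mean of 5.30 ± 0.24 (SD, n = 2) to 2.62 ± 0.081 (SD, n = 2). Because CST1, CST2 and CST4 are close in sequence and the probe sequences were not analysed here, signal from one of these transcripts on the probe of another cannot be told apart from that of its own. The profiles of CST1 and CST2 over the 6 arrays, each centred on its own mean, differed by a root mean square of 0.29 log2 units. Of 11966 other genes, 9 lay nearer to CST2 than CST1 did. Such a distance mostly follows the size of the hsa-miR-205-5p change, on which CST2 was chosen, so nothing is read from this rank.

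CST3 encodes cystatin C, the secreted inhibitor that most cell types make and that blood tests use as a marker of kidney function. On the NM_000099 probe, the signal was 7.80 and 7.59 in the scrambled control, 6.44 and 6.47 with hsa-miR-205-5p, and 7.80 and 7.86 with hsa-miR-214-3p. Both hsa-miR-205-5p arrays lay below the rest, by −1.24 on the log2 scale (2.36-fold lower) against the control. On the NM_001288614 probe, the signal was 1.43 and 1.33 in the scrambled control, 0.74 and 1.08 with hsa-miR-205-5p, and 0.86 and 0.73 with hsa-miR-214-3p. There hsa-miR-205-5p gave a log2 fold change of −0.47 and hsa-miR-214-3p one of −0.59. The first was −0.30 without hsa-miR-205-5p replicate 1, −0.64 without replicate 2 and −0.86 with arrays centred on their median. The arrays of both precursors overlapped each other below the control. The probes of CST3 thus disagreed in size with hsa-miR-205-5p.

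CST6 encodes cystatin E/M, a secreted inhibitor of legumain and of CTSL that is often silenced in breast cancer. Its signal was 3.17 and 2.60 in the scrambled control, 3.78 and 3.73 with hsa-miR-205-5p, and 3.59 and 3.54 with hsa-miR-214-3p. The arrays of either precursor lay above both control arrays, whose own spread was the widest of the 3 groups. On the log2 scale, hsa-miR-205-5p was 0.87 and hsa-miR-214-3p 0.68 above the control. Without scrambled control replicate 1, the first of these was 1.15, past 2-fold, without replicate 2 it was 0.59, and with arrays centred on their median 0.48. The second was 0.96 without scrambled control replicate 1 and 0.40 without replicate 2. CSTB, the widely expressed cytosolic stefin B, had 8.37 and 7.99 in the scrambled control, 8.14 and 8.29 with hsa-miR-205-5p, and 8.25 and 8.28 with hsa-miR-214-3p. All 3 groups of CSTB overlapped.

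CTSD, the main aspartic protease of the lysosome, had a signal of 8.19 and 7.74 in the scrambled control, 6.52 and 6.63 with hsa-miR-205-5p, and 7.81 and 8.10 with hsa-miR-214-3p. The hsa-miR-205-5p arrays lay more than 1 log2 unit below every other array, and their mean differed from the control by −1.39 on the log2 scale (2.62-fold lower). The means were 7.96 ± 0.32 (SD, n = 2) in the scrambled control and 6.57 ± 0.072 (SD, n = 2) with hsa-miR-205-5p. The difference had the same sign as those of CST1, CST2 and the NM_000099 probe of CST3.

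CTSL, a cysteine endoprotease that cystatins inhibit, had a signal of 4.69 and 5.57 in the scrambled control, 4.30 and 4.26 with hsa-miR-205-5p, and 5.81 and 5.85 with hsa-miR-214-3p. The precursor groups lay on opposite sides of the control, whose replicate 1 minus replicate 2 was −0.89. Against the control mean, hsa-miR-205-5p stood at −0.85 and hsa-miR-214-3p at 0.70 on the log2 scale. Both values rest on which control array is used. Without scrambled control replicate 1 they were −1.29 and 0.26, and without replicate 2 they were −0.41 and 1.15. Set side by side without the control, CTSL was 2.93-fold higher with hsa-miR-214-3p (5.83 ± 0.032, SD, n = 2) than with hsa-miR-205-5p (4.28 ± 0.023, SD, n = 2). Without overlap, CST2 (7.36-fold), CST1 (5.76-fold), CTSD (2.61-fold), the NM_000099 probe of CST3 (2.60-fold) and CTSB (1.59-fold) were also higher with hsa-miR-214-3p. CST6 was lower with it, and the arrays of CSTB and of the other CST3 probe overlapped. CTSB, a cysteine cathepsin with both endopeptidase and exopeptidase activity, had 3.90 and 3.33 in the scrambled control, 3.43 and 2.96 with hsa-miR-205-5p, and 3.86 and 3.86 with hsa-miR-214-3p. The control arrays of CTSB overlapped those of both precursors, and its log2 fold changes were −0.42 and 0.25. With 1 array left out, the first ran from −0.70 (without scrambled control replicate 2) to −0.14 (without replicate 1), and it was −0.19 without hsa-miR-205-5p replicate 2 and −0.65 without hsa-miR-205-5p replicate 1.

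Counted over the tested probes, 4 of 9 were at least 2-fold lower with hsa-miR-205-5p and 0 were at least 2-fold higher. Over all 18464 tested probes, 11.7% were at least 2-fold lower and 6.51% at least 2-fold higher. The arrays did not overlap in 6 of the 9 probes with the precursor lower and in 1 with it higher, against 28.7% and 33.6% of all tested probes. The median log2 fold change of the 9 was −0.85, and that of all tested probes was 0.055. Nothing is read from these counts, since CST2 was chosen on this comparison and its relatives came with it.

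**Figure D2:**
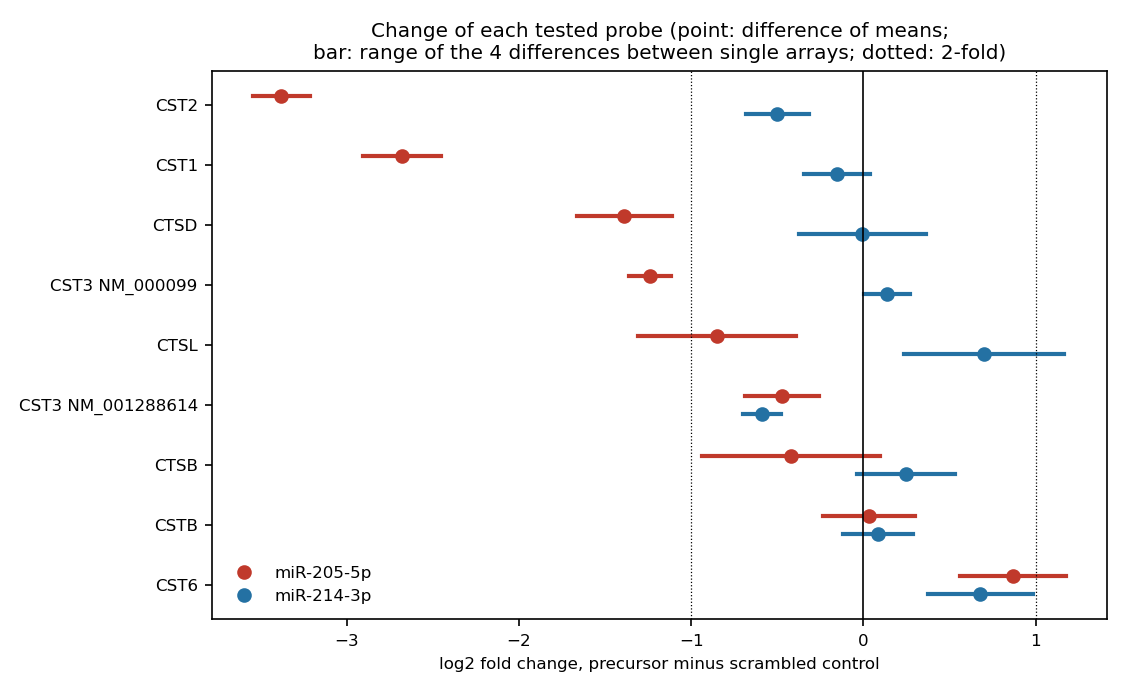
Log2 fold change (x axis, precursor minus scrambled control) of the 9 tested probes. Points are differences of group means, bars the range of the 4 differences between single arrays, and dotted lines mark 2-fold. CST2, CST1, CTSD and the NM_000099 probe of CST3 lie beyond 2-fold with hsa-miR-205-5p, and no point lies beyond 2-fold with hsa-miR-214-3p, where the sign of CSTB, CTSD and that CST3 probe turns with the processing.

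The comparison of hsa-miR-214-3p with the scrambled control was not used to choose the genes, but it shares the control arrays with the one that was. Of the 9 probes, limma called 0 lower and 0 higher at an adjusted p under 0.05 and at least 2-fold, while 1.68% of all tested probes were called lower and 0.991% higher. At an unadjusted p under 0.05, 3 of the 9 passed without a limit on size (the NM_001288614 probe of CST3, CST6 and CST2) and 0 passed together with a 2-fold change. Of all tested probes, 22.6% passed without a limit on size, and 3.87% passed lower and 2.69% higher with a 2-fold change, so these counts lie near the background. The methods' t-test, unadjusted, also called 0 in either direction, beside 2.57% of all tested probes lower and 1.54% higher. The methods name that test under general statistics and not for the arrays. For CST2 the change was −0.50 on the log2 scale, with a standard error of 0.17 and an adjusted p of 0.171 in limma, and both hsa-miR-214-3p arrays lay below both control arrays. The 95% interval of that change ran from −0.93 to −0.07. CST6 had a standard error of 0.23 and an adjusted p of 0.164 from limma, and the NM_001288614 probe of CST3 a standard error of 0.18 and an adjusted p of 0.147. CST1 was at −0.15 (adjusted p = 0.659 from limma), with overlapping arrays.

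For CTSL, whose change of 0.70 was the widest of the 9, limma gave a standard error of 0.31 and an adjusted p of 0.253. Over 15 alternatives its adjusted p in limma ran from 0.0248 to 0.666, and it was called higher in 1 of them, without scrambled control replicate 2. That fit left a single control array, whose spread was assumed to be that of the other groups. The changes of CTSB, CTSD, CSTB and the NM_000099 probe of CST3 were 0.25, −0.0058, 0.087 and 0.14, with adjusted p between 0.621 and 0.991 from limma. CTSD, CSTB and that CST3 probe lay on either side of 0 depending on the scaling or background correction of the arrays, so no direction is given for them. The arrays of hsa-miR-214-3p lay wholly above the control for 3 of the 9 probes and wholly below it for 2, against 26.8% and 28.6% of all tested probes. The median change was 0.087, and that of all tested probes −0.0084. A 95% interval for CTSD from −0.56 to 0.54 and one for CTSB from −0.42 to 0.91 show what sizes 2 arrays per group could not tell from 0.

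The direction of the hsa-miR-205-5p values held in every alternative for 8 of the 9 probes, CSTB being the exception. CST2 lay between −3.77 and −2.80, CST1 between −3.07 and −2.51, CTSD between −1.78 and −1.16, and the NM_000099 probe of CST3 between −1.63 and −1.14. The lowest of each came from centring every array on its median, which shifts all probes.

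**Figure D3:**
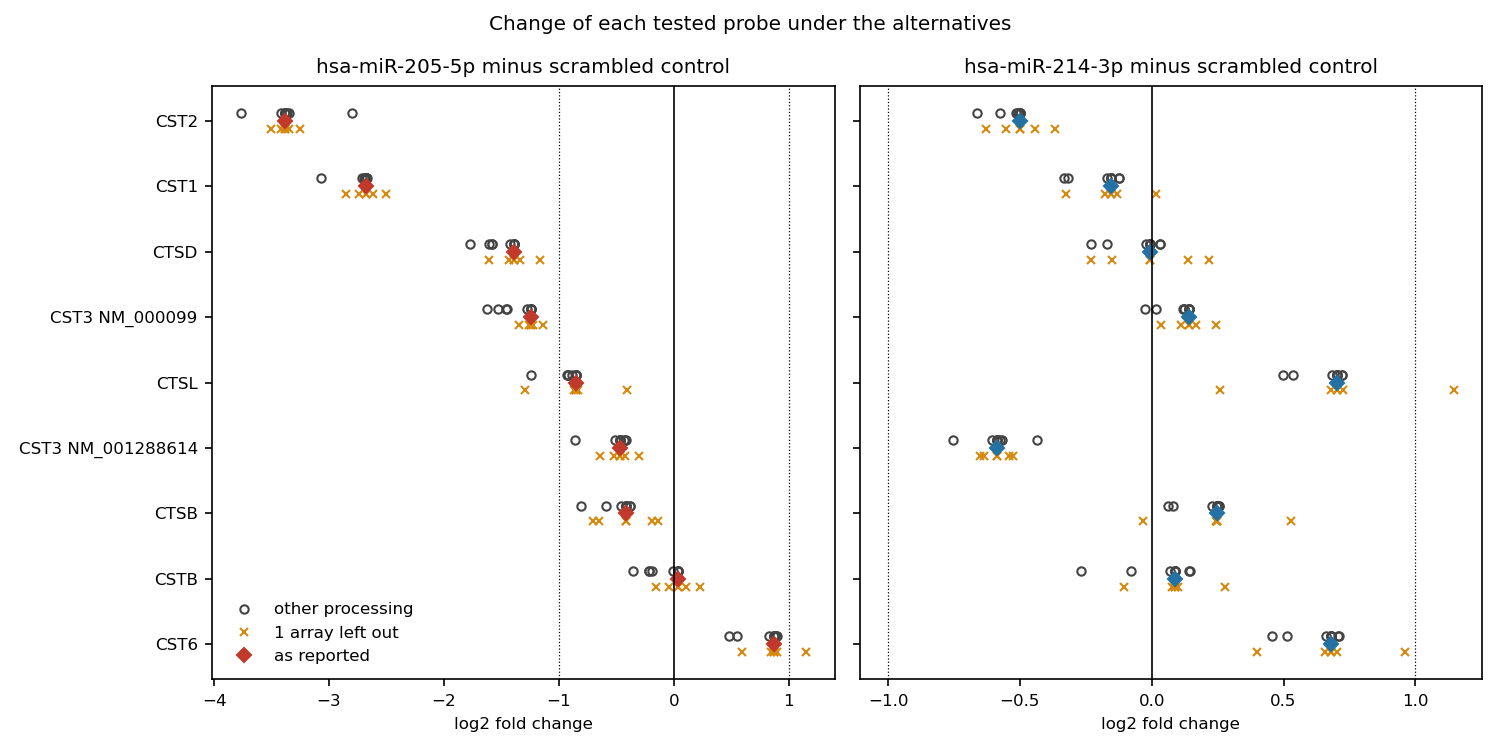
Log2 fold change (x axis, note the different scales) of the 9 tested probes for each precursor as reported (diamonds), under other processing (circles) and with 1 array left out (crosses). With hsa-miR-205-5p, CST2 stays between −3.77 and −2.80, and with hsa-miR-214-3p the crosses of CTSL run from 0.26 to 1.15.

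For each probe at least 2-fold from the control, the 3 genes with the most similar profile over the 6 arrays were taken by the root mean square difference of centred normalized log2 signals, among 11966 other genes. Nearest to CST2 were RPS3 (distance 0.24), USP7 (0.25) and SORBS2 (0.25). RPS3 was at −2.90 on the log2 scale with hsa-miR-205-5p. USP7 and SORBS2 were well above background on 4 of the 6 arrays only, so no fold is given for them and their distances rest partly on signals near background. Nearest to CST1 were GSTZ1 (0.12), CEP85 (0.13) and GOLGA1 (0.14), of which GSTZ1 alone was well above background on all 6. Nearest to CST3 on the NM_000099 probe were FAM136A, PES1 and SLC25A24, at 0.052 to 0.068, and nearest to CTSD were SLC25A24, MAN2C1 and DOT1L, at 0.11 each. The profiles of CTSD and CST3 differed by 0.12. These likenesses rest on 6 arrays in 3 groups and are given as a description.

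The rest of the cystatin family was mostly dim. Of 11 other cystatin genes, 2 passed the filter. CST5 (cystatin D), which neighbours CST2 on chromosome 20, had 3.35 and 3.60 in the scrambled control, 2.66 and 1.75 with hsa-miR-205-5p, and 3.06 and 3.29 with hsa-miR-214-3p. Both precursor groups lay below the control arrays, by −1.27 and −0.30 on the log2 scale, and the 2 hsa-miR-205-5p arrays lay far apart. CST7 (cystatin F) overlapped its control with hsa-miR-205-5p.

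Of 15 other cathepsins and lysosomal proteases, 11 passed the filter. With hsa-miR-205-5p, 1 was at least 2-fold lower and 2 at least 2-fold higher, where 11% and 6.46% of all 11974 tested genes were. The lower one was the aspartic protease NAPSA, which was well above background on neither hsa-miR-205-5p array, so no fold is given for it. CTSZ (cathepsin X), a carboxypeptidase, had 2.82 and 2.74 with hsa-miR-205-5p, 2.35 and 2.18 with hsa-miR-214-3p and 1.74 and −0.36 in the scrambled control. The size of its log2 fold changes of 2.09 and 1.58 thus rests partly on a low value in scrambled control replicate 2. The arrays of both precursors also lay above scrambled control replicate 1. TPP1, a tripeptidyl peptidase, had 5.84 and 5.80 with hsa-miR-205-5p and 5.24 and 4.31 in the scrambled control on its brighter probe. Its log2 fold change of 1.04 there rests on the lower control array, scrambled control replicate 2, and is under 2-fold against the other one, and its dimmer probe was at −0.58. With hsa-miR-214-3p these probes stood at −0.014 and −1.77, the second with an adjusted p of 0.0556 in limma. The probes of CTSA, a serine carboxypeptidase, also differed with hsa-miR-205-5p, at 0.019 on the brighter and −1.44 on the dimmer one. With hsa-miR-214-3p, limma called 0 of the 11 in either direction, against 2.03% of all tested genes lower and 1.09% higher, and at unadjusted p it called 0 lower and 1 higher, against 4.13% and 2.66%. That gene was CTSC (dipeptidyl peptidase I), which activates serine proteases of granules. Its signal was 3.61 and 4.11 in the scrambled control and 5.01 and 5.03 with hsa-miR-214-3p. limma put the change at 1.16 on the log2 scale with a standard error of 0.21 and an adjusted p of 0.0556, and its other 2 probes had 1.18 and 1.17. Over 15 alternatives its adjusted p in limma ran from 0.0233 to 0.363, and it was called higher in 2.

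**Figure D4:**
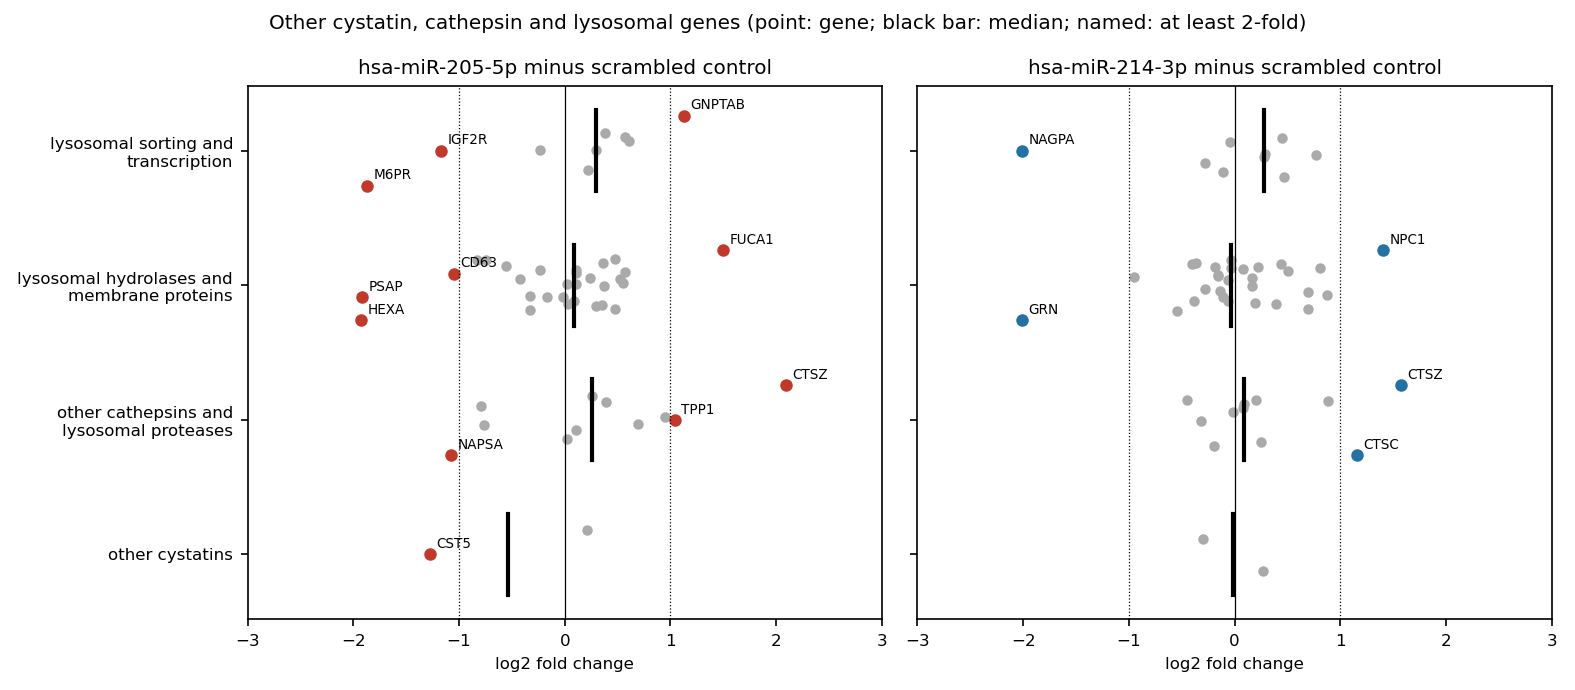
Log2 fold change (x axis) of the tested genes of 4 lists, by the brightest probe of each gene. Points are genes, black bars medians, dotted lines mark 2-fold, and genes beyond 2-fold are named (for NAPSA, both hsa-miR-205-5p signals were too dim for a fold). The medians lie between −0.53 and 0.29 for hsa-miR-205-5p and between −0.037 and 0.28 for hsa-miR-214-3p.

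Of 30 lysosomal hydrolases and membrane proteins, 29 were tested, and with hsa-miR-205-5p 3 were at least 2-fold lower and 1 was at least 2-fold higher, beside 11% and 6.46% of all tested genes. PSAP, the precursor of the saposins that help lysosomal enzymes reach their lipids, stood at −1.92 on the log2 scale, and its second probe at −1.75. HEXA, a subunit of β-hexosaminidase, was at −1.93. The tetraspanin CD63 was at −1.05, and the fucosidase FUCA1 was above the control, with 4.44 and 4.49 against 2.90 and 3.04. The median of the list was 0.085, beside 0.077 over all tested genes. With hsa-miR-214-3p the medians were −0.037 and −0.012.

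Of 9 genes of lysosomal sorting and transcription, all were tested. With hsa-miR-205-5p the mannose 6-phosphate receptors M6PR and IGF2R, which carry cathepsins to the lysosome, were at −1.87 and −1.17, and GNPTAB, which makes the mannose 6-phosphate tag, at 1.13. The scrambled control arrays of M6PR differed from each other by more than 1 log2 unit (0.76 and 2.35), both above the hsa-miR-205-5p arrays (−0.36 and −0.27).

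With hsa-miR-214-3p, limma called 1 gene lower in each of these lists and 0 higher, beside 2.03% and 1.09% of all tested genes. GRN encodes progranulin, a secreted protein that is processed by cathepsins in the lysosome. Its signal was 10.26 and 9.84 in the scrambled control and at most 8.07 on the hsa-miR-214-3p arrays. The change was −2.01 on the log2 scale, with a standard error of 0.21 and an adjusted p of 0.0263 in limma. NAGPA uncovers the mannose 6-phosphate tag in the Golgi. Its signal was 4.70 and 4.30 in the scrambled control and 2.40 and 2.58 with hsa-miR-214-3p, again a change of −2.01, with a standard error of 0.20 and an adjusted p of 0.0257 in limma. With hsa-miR-205-5p, GRN and NAGPA were at 0.24 and 0.29. Each call was kept in 7 of 15 alternatives. Both were lost when 1 array was dropped, unless that was scrambled control replicate 2, with adjusted p up to 0.243 in limma, and also with no filter, with the replicate block and in the fit on the 4 arrays compared alone. Over the 15 alternatives the change itself ran from −2.36 to −1.81 for GRN and from −2.21 to −1.81 for NAGPA. These 15 alternatives are not all distinct. Leaving out either hsa-miR-205-5p array gave the same hsa-miR-214-3p values as the fit on the 4 arrays compared alone. NPC1, a cholesterol exporter of the lysosome, was at 1.41 with hsa-miR-214-3p and missed the threshold (adjusted p = 0.0532 from limma). Over 15 alternatives its adjusted p in limma ran from 0.0233 to 0.332, and it was called higher in 3, under quantile normalization, with the stricter filter and without scrambled control replicate 2.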

How the data were processed

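Total RNA of MDA-MB-231 cells was labeled with 1 dye and hybridized to Agilent SurePrint G3 Human GE arrays, 1 per sample, with groups taken from the labels. The authors deposited Feature Extraction 11.0 output, in which the processed signal is an intensity, background subtracted and spatially detrended but not scaled between arrays. A log2 table of these arrays was deposited too, whose columns have identical sorted values and a median of 3.49. Its normalization is not given in the sources used here, and it served as an alternative. The methods name GeneSpring 13.0, a p-value threshold and a 2-fold limit, and do not say whether p was adjusted for these arrays. They name a t-test under general statistics and not for the arrays, and it was run here with the scaling and filter described below.

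Control and outlier spots were left out, spots of a probe averaged, log2 taken and the 75th percentile subtracted. A probe was tested when each array of 1 or more groups had it well above background and every array gave a value. The number of arrays limits the precision. limma 3.58.1 in R 4.3.3 was fitted on all 6 arrays (3 residual degrees of freedom, 2.47 from the shared spread), with Benjamini-Hochberg adjustment over all 18464 probes. A call needed an adjusted p under 0.05 and 2-fold. Where a gene stands for several probes, its brightest tested probe was used. Names came from RefSeq (GRCh38.p14), and 83.3% of the tested probes had one. The array design was annotated on hg19, so no gene coordinates are given. On simulated arrays limma recovered 55 of 100 probes at a 3-fold and 71 of 100 at a 6-fold change in the hsa-miR-214-3p comparison, and called 7 unchanged ones. The simulation gave each probe 1 spread for all groups. In the real data the scrambled control replicates lay farther apart than those of hsa-miR-214-3p, so these rates may not hold there. Figures were drawn with matplotlib 3.10.9.

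The genes, lists and tests were chosen with earlier results of these data known. Besides the cystatins and cathepsins, genes of the other lists were named when at least 2-fold from the control, detected above background on each of the 4 arrays compared and with arrays that did not overlap. 1 gene of the lysosomal list is not reported here, and the counts and medians of that list leave it out. Genes named outside that rule were chosen after their values were seen. The alternatives were normexp background correction (offset 50, on the median signal), quantile normalization, centring on the median or on the 75th percentile of bright probes, the authors' log2 table, no or a stricter filter, the 4 arrays compared alone, a replicate block, limma's trend with robust spread, each array left out (a group cut to 1 array then takes its spread from the remaining groups), the methods' t-test, unadjusted p, no fold limit, and every probe of a gene.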

Additional observations from a re-analysis of the deposited data

How the results depend on the processing

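The counts of calls with hsa-miR-214-3p changed with the arrays and probes that entered the fit, and a fit without 1 array tests a group of a single array with the spread of the others. Leaving out 1 array gave 0 or 1 of the 9 cystatin and cathepsin probes called higher (1, CTSL, without scrambled control replicate 2) and 0 called lower. With hsa-miR-205-5p, 0 or 1 was at least 2-fold higher when 1 array was left out (1, CST6, without scrambled control replicate 1), and with no filter on dim probes 1 was (CSTA, not well above background). The count at least 2-fold lower rose from 4 to 5 without scrambled control replicate 1 and under median centring, where CTSL was at −1.29 and −1.24. Among the other cystatins and cathepsins, 0 or 1 gene was called higher on leaving out 1 array, and 1 with the stricter filter, with limma's trend, with the methods' t-test unadjusted and at unadjusted p. Of the lysosomal genes, between 0 and 2 were called lower and between 0 and 4 higher on leaving out 1 array, and 3 were called lower under normexp. Of these genes, 0 were called lower with no filter, on the 4 arrays alone, with the replicate block and by the methods' t-test after adjustment. With quantile normalization, the stricter filter, limma's trend and unadjusted p, 1 was called higher. Over all tested probes, 311 were called lower and 183 higher, with a range of 0 to 715 and 0 to 1059 over the alternatives. The split was 244 lower and 45 higher under normexp and 365 and 66 under median centring. 0 came from no filter, the 4 arrays alone, the replicate block, the adjusted t-test and leaving out any array but scrambled control replicate 2.

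With hsa-miR-205-5p the sign of CSTB turned, from 0.034 to −0.19 under normexp, −0.22 under quantile normalization and in the authors' table, and −0.36 under median centring. The other turns of sign were in small hsa-miR-214-3p changes. CSTB was −0.27 under normexp, −0.078 under median centring, and ran from −0.10 (without scrambled control replicate 2) to 0.28 on leaving out 1 array. CTSD was 0.032 under quantile normalization and 0.033 in the authors' table, and ran from −0.23 to 0.22 on leaving out 1 array (0.14 without hsa-miR-214-3p replicate 1). The NM_000099 probe of CST3 was −0.026 under median centring. On leaving out 1 array, CST1 ran from −0.32 to 0.017 and CTSB from −0.035 to 0.53, the positive CST1 and the negative CTSB value both without scrambled control replicate 2. Median centring moved the median of all probes by −0.39 with hsa-miR-205-5p and −0.17 with hsa-miR-214-3p, and dropping the filter moved it by 0.52 and 0.32. The cause of the other shifts was not tested. Same-numbered arrays were not paired by the labels, and their deviations correlated with those of the control at 0.0082 for hsa-miR-205-5p and −0.051 for hsa-miR-214-3p, and at 0.11 between the precursors. The replicate block left 0 calls over all probes.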
